A study of Mus musculus with 6 samples.

Results

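The genes described here are 37 genes of mitosis, chosen by name as mitotic cyclins, kinases, spindle and kinetochore genes, condensin subunits and regulators of mitotic exit. All 37 are among the 25239 genes of the deposited count table, and all 37 passed the filter on low counts. RNA was sequenced in 6 libraries from ovaries of C57BL/6 mouse embryos at E18.5, shortly before birth. The 3 WT libraries carry the genotype label WT and the other 3 the label Hnrnpl-null, with the abbreviation CKO in their titles, which the labels do not explain. Hnrnpl encodes an RNA-binding protein that regulates splicing. Oocyte is the labelled cell type, but ovaries were dissociated with an enzyme and no sort is named. The stage, strain and tissue are shared by both groups. The name of the deposited count table holds the word stra8, which the labels do not explain. No allele, driver line or number of pooled animals is otherwise given in the sources used here. Separate animals are named for no library, so the p-values rest on a spread between libraries that may be technical. Values per library are given throughout in the order of replicates 1, 2 and 3.

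A cell enters mitosis when cyclin A and cyclin B activate Cdk1, after which Aurora and Polo kinases build the spindle, condensin compacts the chromosomes and kinetochores attach them to microtubules. The spindle checkpoint holds back the anaphase-promoting complex until all chromosomes are attached, and the complex then marks cyclin B for destruction. Most of these genes are transcribed in G2 and M phase, so their RNA is used as a mark of dividing cells. Whether oocytes also hold this RNA cannot be told from libraries of whole tissue. In the ovary before birth the oocytes have left the mitotic cycle and lie in meiotic prophase, while pregranulosa cells, stroma, surface epithelium, vessels and blood cells can divide. In libraries from whole tissue, fewer cells of a type and less RNA per cell cannot be told apart.

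Mitosis genes share promoter elements that repress them outside G2 and M phase and activate them within it, and these are shown for 5 genes whose values are given later. The cell cycle genes homology region, bound by the MuvB complexes, was searched as TTTGAA or TTCGAA on both strands (TTCAAA is the reverse complement of the first, and the second is its own). The box bound by NF-Y was searched as CCAAT on both strands (ATTGG). In each sequence below, from 250 bases before to 50 bases after the start of the gene, 5′ to 3′ on the strand of the gene, capitals mark these letters.
Top2a: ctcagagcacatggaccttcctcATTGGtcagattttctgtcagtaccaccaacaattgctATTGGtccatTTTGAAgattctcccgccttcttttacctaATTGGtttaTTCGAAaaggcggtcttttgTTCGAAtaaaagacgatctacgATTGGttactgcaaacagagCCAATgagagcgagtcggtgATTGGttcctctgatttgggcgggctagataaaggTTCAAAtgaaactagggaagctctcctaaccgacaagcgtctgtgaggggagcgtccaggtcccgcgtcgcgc
Cdc20: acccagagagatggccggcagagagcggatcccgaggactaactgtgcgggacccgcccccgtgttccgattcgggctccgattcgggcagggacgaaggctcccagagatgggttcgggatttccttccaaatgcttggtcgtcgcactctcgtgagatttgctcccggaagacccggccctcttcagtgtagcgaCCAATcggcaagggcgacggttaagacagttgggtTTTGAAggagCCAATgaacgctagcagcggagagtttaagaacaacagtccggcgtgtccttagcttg
Cenpf: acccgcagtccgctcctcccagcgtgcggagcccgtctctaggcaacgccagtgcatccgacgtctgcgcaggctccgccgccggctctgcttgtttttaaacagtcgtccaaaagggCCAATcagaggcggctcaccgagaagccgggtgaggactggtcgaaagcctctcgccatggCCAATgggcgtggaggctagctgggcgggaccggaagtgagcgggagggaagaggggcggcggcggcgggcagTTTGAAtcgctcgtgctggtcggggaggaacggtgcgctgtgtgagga
Ttk: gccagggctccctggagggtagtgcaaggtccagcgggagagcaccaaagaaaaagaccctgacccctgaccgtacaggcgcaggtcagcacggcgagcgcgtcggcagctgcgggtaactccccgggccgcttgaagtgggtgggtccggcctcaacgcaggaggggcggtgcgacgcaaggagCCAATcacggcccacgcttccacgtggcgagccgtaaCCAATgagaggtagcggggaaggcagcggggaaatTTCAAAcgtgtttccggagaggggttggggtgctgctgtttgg
Ccnb1: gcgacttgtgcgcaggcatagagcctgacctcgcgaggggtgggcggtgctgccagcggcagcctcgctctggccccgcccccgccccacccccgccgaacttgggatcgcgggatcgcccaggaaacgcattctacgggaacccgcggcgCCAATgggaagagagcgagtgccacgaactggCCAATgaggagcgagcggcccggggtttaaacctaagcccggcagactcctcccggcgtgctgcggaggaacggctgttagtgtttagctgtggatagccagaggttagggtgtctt
The windows are RefSeq sequence of GRCm38.p6 at chr11:99024140-99024439 (minus strand) for Top2a, chr4:118437294-118437593 (minus) for Cdc20, chr1:189688037-189688336 (minus) for Cenpf, chr9:83834439-83834738 (plus) for Ttk and chr13:100786437-100786736 (minus) for Ccnb1. Top2a and Cdc20 had higher means in Hnrnpl-null and Cenpf and Ttk lower ones, and the windows of all 4 hold letters of both elements. The Ccnb1 window holds 2 CCAAT boxes and no match to the other element, which says only that these letters are not in this window.

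The promoter table held 33 windows for 31 of the 37 genes. It gave none for Aurkb, Ccna2, Incenp, Kif20a, Smc4 and Tpx2. The Kif2c window (chr4:117178723-117179022, minus strand) lies inside the gene as counted, which starts at 117182624, and it is kept in the counts below. The homology region matched in 26 of the 33 windows (78.8%), against 6316 of 32851 windows of all genes (19.2%), and CCAAT matched in 25 (75.8%) against 12289 (37.4%). Both matched in 23 windows (69.7%) against 2472 (7.52%). A match of the homology region within 50 bases of the start, a limit set after the matches were seen, was in 24 windows (72.7%) against 1743 (5.31%). Another arrangement looked for after the matches were seen, CCAAT boxes on 1 strand with starts 31 to 33 bases apart, was in 6 windows (18.2%), those of Aurka, Ccnb1, Ccnb2, Cdk1, Spc25 and Ube2c, against 261 (0.794%). The 24 genes with a match to the homology region had a median log2 fold change (Hnrnpl-null minus WT) of 0.06 and ranged from -0.76 to 0.98. The 7 without one had a median of -0.09 and ranged from -0.75 to 0.64. Above 0 were 13 of the 24 and 3 of the 7. Of the genes with CCAAT, 13 of 23 were above 0 (median 0.10), against 3 of 8 without it (median -0.05). Of the 6 genes with the CCAAT pair, 5 were above 0 (median 0.46), against 11 of 25 without it (median -0.09). Genes on both sides of 0 were found with and without each arrangement, and no test was made of these splits.

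Precision differed much between the libraries. Totals ran from 8949781 to 22401419 counts, but the ribosomal precursor Rn45s made up 83.0% of WT replicate 1, 86.1% of Hnrnpl-null replicate 3 and 18.6% to 36.0% of each of the others. Summed over the 37 genes, WT replicate 1 held 5099 counts, Hnrnpl-null replicate 3 held 2170, and the other 4 libraries held 10360 to 19544. Counts of up to 20 were mostly even (93.4% to 98.4% per library), so a read pair appears to add 2. In Hnrnpl-null replicate 3 such a pair was worth 0.624 CPM (the count scaled to library size, with the size adjusted by TMM, the trimmed mean of M-values), against 0.0760 to 0.263 CPM elsewhere, and the lowest of the 37 genes there, Ndc80, had 6 counts. The gene Hnrnpl was at 171, 169 and 145 CPM in the WT libraries and 166, 172 and 213 CPM in the Hnrnpl-null ones (ratio 1.13, edgeR adjusted p = 0.50), so its count over all exons and cells does not check the labels.

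As a set the mitosis genes were at nearly the same level in both groups. Their summed level was 671, 649 and 713 CPM in the WT libraries and 688, 743 and 677 CPM in the Hnrnpl-null ones, with groups that overlapped. The means were 677 ± 32.7 and 703 ± 35.3 CPM (SD, n = 3 each). The edgeR quasi-likelihood test, adjusted over all 14849 genes tested, called 1 gene higher (Top2a) and 1 lower (Cenpf) at an adjusted p below 0.05. That is 5.41% of the 37, beside 4.46% of all genes tested, so the share of calls in this fit was near the background. By direction, the background was 2.67% of genes called higher and 1.79% lower. Without adjustment, 13 of the 37 genes had an edgeR p below 0.05, 9 with higher and 4 with lower means in Hnrnpl-null, beside 9.97% and 8.53% of all genes tested in those directions. These shares of the 37 were larger than those of all genes tested, above all for higher means. The difference was not tested. Groups did not overlap for 11 of the 37, beside 25.6% of all genes tested. Of these 11, 7 were higher (12.4% of all genes) and 4 lower (13.2%). The median log2 fold change was 0.07 over the mitosis genes and -0.01 over all genes tested. It was 0.18 without Hnrnpl-null replicate 3, 0.16 without Hnrnpl-null replicate 1, -0.025 without Hnrnpl-null replicate 2 and -0.002 without WT replicate 3, so its sign depended on single libraries.

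Calls depended on the setting, for the mitosis genes and for all genes tested. DESeq2 called 4 of the 37 (Cdc20 and Ncapg besides Top2a and Cenpf) and 7.35% of all genes tested. Limma-voom called 7 (also Ccna2, Ccnb1 and Ube2c) and 8.57%. Without both libraries richest in Rn45s edgeR called 6 (all of the limma-voom genes but Ube2c) and 5.31% of all genes. In these fits the share of the 37 called was above that of all genes tested, a difference that was not tested. With 1 library left out, the share of all genes called was 2.36%, 1.68% and 2.18% without WT replicates 1, 2 and 3, and 1.63% to 5.42% without an Hnrnpl-null one (2.54% without its replicate 1, the highest without its replicate 3). Robust dispersions called 6.27%, halved counts 6%, no filter 5.48%, a stricter filter 5.02%, removal of the length trend 5%, omission of the Rn45s row 4.79%, RLE factors 4.51%, upper quartile factors 4.4%, the replicate number as a block 2.99% and total counts as the only scaling 0.0269%.

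**Figure D1:**
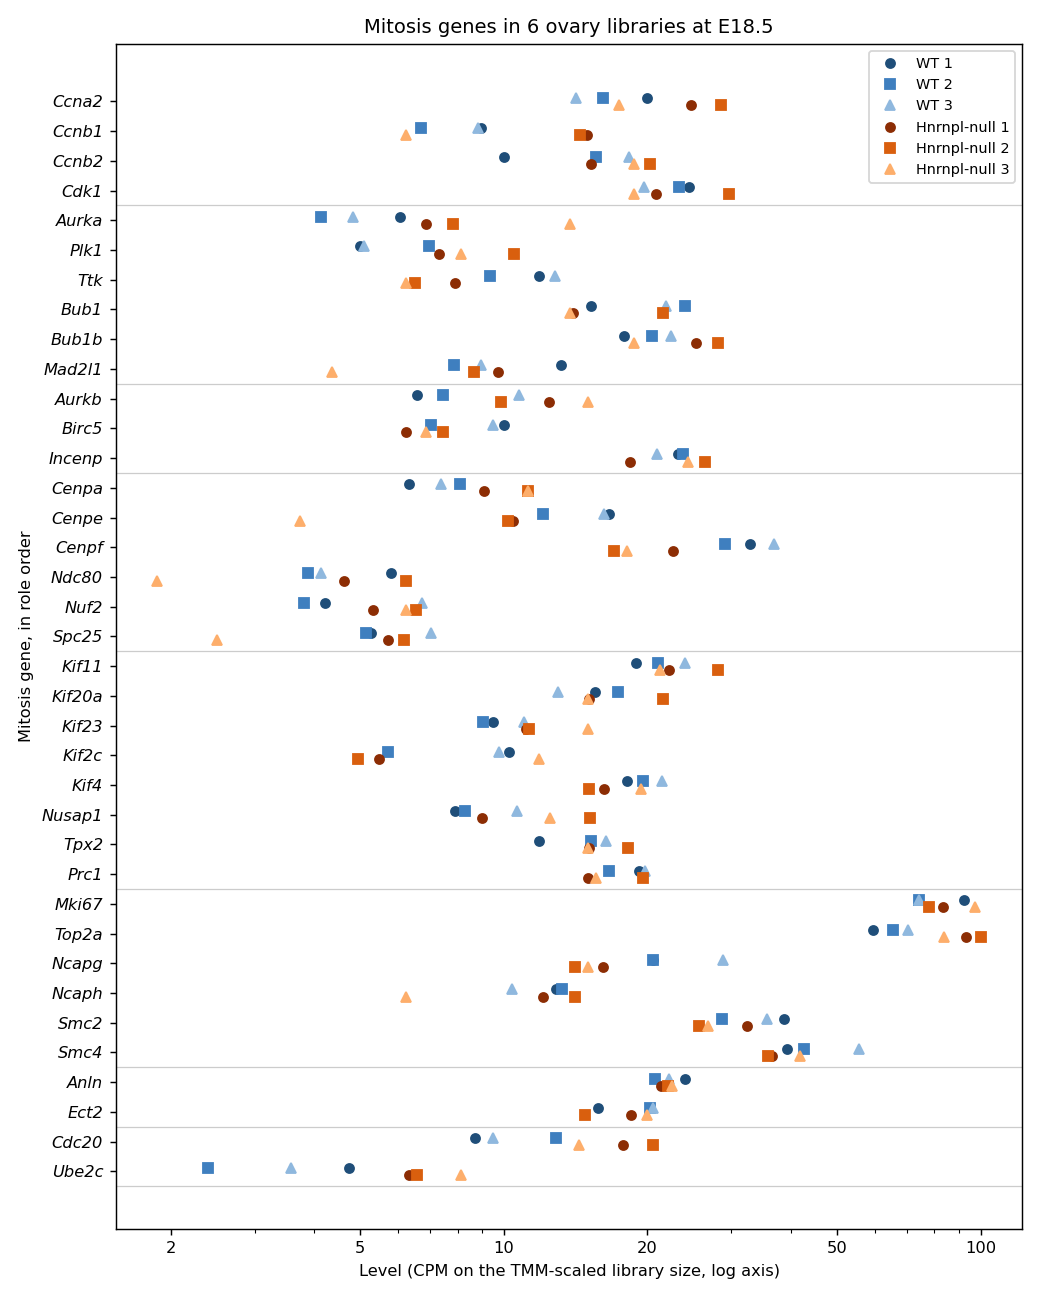
Level of each mitosis gene in each of the 6 libraries, in CPM on a log axis, with 1 point per library and genes grouped by role (grey lines). Groups stand apart for 11 of the 37 genes, among them Top2a and Cenpf, and overlap for the others. For Ncapg the points of WT replicates 1 and 2, both at 20.5 CPM, coincide.

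The order of levels, compared per kilobase of exon, was broadly similar in both groups, though single genes moved. Mean levels ran from 1.92 to 12.5 CPM per kb in WT and from 1.04 to 17.7 CPM per kb in Hnrnpl-null. The means of the groups had a Spearman coefficient of 0.76, and their log2 values a Pearson r of 0.83, over the 37 genes, which share the same 6 libraries. Ube2c went from rank 23 in WT to rank 6 in Hnrnpl-null, and Ncapg from rank 6 to rank 21. Top2a, the topoisomerase that untangles sister chromatids, was the highest in both, at 12.5 ± 1.05 and 17.7 ± 1.60 CPM per kb (SD, n = 3 each). Next in WT came Smc4 at 10.6 ± 1.98, Ccnb2 at 9.49 ± 2.75 and Mki67 at 7.96 ± 1.04 CPM per kb, neighbours that did not differ beyond their spread. The lowest in both groups was Cenpe, a kinetochore motor, at 1.92 ± 0.320 CPM per kb in WT and 1.04 ± 0.486 in Hnrnpl-null. In WT its neighbours Nuf2 (1.98 ± 0.642) and Ndc80 (2.09 ± 0.469) lay within its spread. Top2a and Mki67, the gene of the proliferation antigen Ki-67, together made up 20.3% to 22.6% of the summed CPM of the 37 genes in the WT libraries and 24.0% to 26.7% in the Hnrnpl-null libraries.

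The cyclins of mitosis had higher means in Hnrnpl-null, but edgeR called none of them with all libraries. For Ccna2 and Ccnb1, Hnrnpl-null replicate 3 was lower than the other libraries of its group. Ccna2, the cyclin of S phase and mitotic entry, was at 19.996, 16.1 and 14.2 CPM in the WT libraries and 24.7, 28.6 and 17.5 CPM in the Hnrnpl-null ones. Ccnb1, the main partner of Cdk1 in mitosis, was at 8.95, 6.71 and 8.81 CPM in WT and 14.9, 14.4 and 6.24 CPM in Hnrnpl-null. Both genes were above every WT library in Hnrnpl-null replicates 1 and 2, and replicate 3 was inside the WT range for Ccna2 and below it for Ccnb1, where it held 20 counts. Log2 fold changes were 0.54 ± 0.19 and 0.64 ± 0.28 (SE; edgeR adjusted p = 0.14 and 0.23). Without Hnrnpl-null replicate 3 they were 0.68 and 0.87 and both were called (edgeR adjusted p = 0.035 and 0.025). Ccna2 shares exonic sequence with Exosc9 on the other strand, and the strand setting of the counts is not given in the sources used here. Ccnb2, a second cyclin B, and Cdk1, the kinase itself, had groups that overlapped, with ratios of Hnrnpl-null to WT of 1.21 (95% interval 0.879 to 1.68) and 1.05 (0.802 to 1.38). Of the 4 genes edgeR called 0 and DESeq2 called 0, limma-voom called 2 higher, and 2 had an unadjusted edgeR p below 0.05.

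Cdc20 and Ube2c, which work with the anaphase-promoting complex, stood at higher levels in every Hnrnpl-null library. Other activators of the complex are counted in a later list. Cdc20, the coactivator that the spindle checkpoint inhibits, was at 8.68, 12.8 and 9.50 CPM in the WT libraries and 17.8, 20.6 and 14.4 CPM in the Hnrnpl-null ones. Ube2c, the ubiquitin-conjugating enzyme that works with the complex, was at 4.74, 2.40 and 3.58 CPM in WT and 6.31, 6.58 and 8.11 CPM in Hnrnpl-null. The groups did not overlap for either gene. Cdc20 had a log2 fold change of 0.77 ± 0.21 and just missed the threshold (edgeR adjusted p = 0.0501). It was called in 10 of 20 alternative settings, among them DESeq2 (adjusted p = 0.019), limma-voom (adjusted p = 0.017) and the fit without Hnrnpl-null replicate 3 (edgeR adjusted p = 0.023). Without any 1 of the other 5 libraries it was not called (edgeR adjusted p of 0.058 to 0.24). Ube2c had the largest log2 fold change of the 37 genes at 0.98 ± 0.32 (edgeR adjusted p = 0.11), and of the 20 alternatives only limma-voom called it (adjusted p = 0.024). Cdc20 overlaps exons of Elovl1 on the other strand. Neither was called by edgeR, and DESeq2 called 1 and limma-voom 2 of them higher. Both had an unadjusted edgeR p below 0.05.

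Among the mitotic kinases and checkpoint genes, Aurka and Plk1 were higher and Ttk lower in every Hnrnpl-null library. Aurka, the kinase of spindle poles, was at 6.05, 4.14 and 4.82 CPM in the WT libraries and 6.86, 7.83 and 13.7 CPM in the Hnrnpl-null ones, with the highest value resting on 44 counts. Plk1, the Polo kinase of centrosome maturation and mitotic entry, was at 5.0, 6.96 and 5.09 CPM in WT and 7.33, 10.5 and 8.11 CPM in Hnrnpl-null. Ttk, the kinase that starts the spindle checkpoint at unattached kinetochores, was at 11.8, 9.36 and 12.8 CPM in WT and 7.91, 6.50 and 6.24 CPM in Hnrnpl-null. The log2 fold changes were 0.86 ± 0.30, 0.60 ± 0.26 and -0.69 ± 0.23 (edgeR adjusted p = 0.14, 0.23 and 0.12), and that of Aurka was 0.59 without Hnrnpl-null replicate 3. The other checkpoint genes had groups that overlapped. The ratios of Hnrnpl-null to WT were 0.814 for the kinase Bub1 (95% interval 0.590 to 1.12), 1.21 for Bub1b, the gene of BubR1 (0.938 to 1.55), and 0.824 for Mad2l1, the gene of the Cdc20 inhibitor Mad2 (0.539 to 1.26). Of these 6 genes, edgeR, DESeq2 and limma-voom called 0, and 3 had an unadjusted edgeR p below 0.05.

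**Figure D2:**
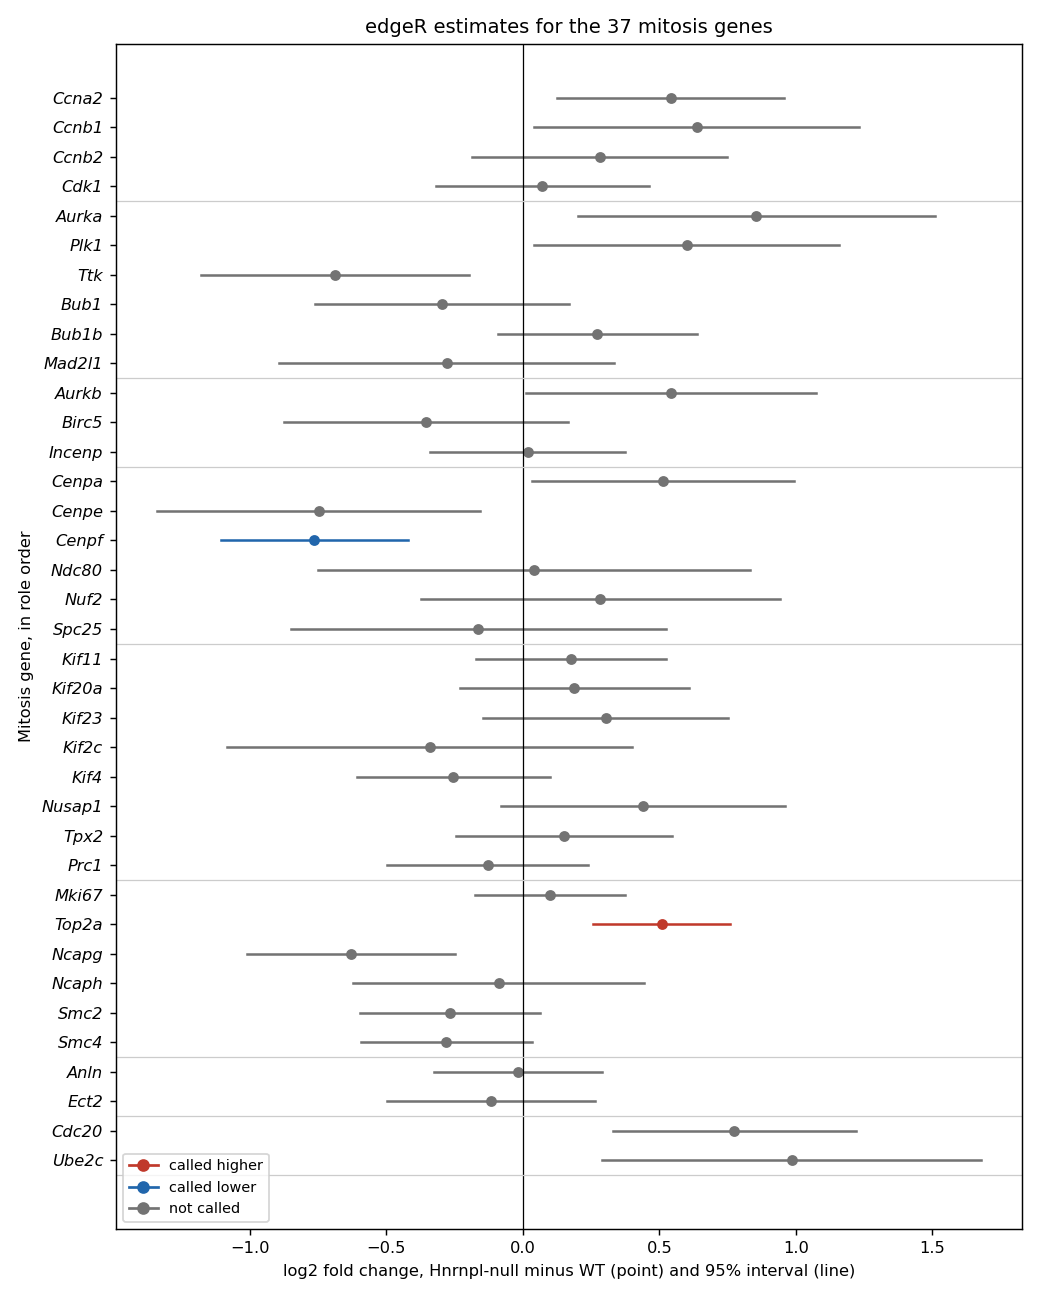
Log2 fold change of each mitosis gene (Hnrnpl-null minus WT, edgeR) as a point with its 95% interval as a line, in the same role order. The interval of 13 genes leaves out 0, and Top2a (red) and Cenpf (blue) are those called after adjustment over all genes tested.

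The centromere and kinetochore genes held the fall that was called. Cenpf, a large protein of the outer kinetochore that binds microtubules and dynein regulators (chromosome 1, 189640614 to 189688086, mm10, minus strand), was at 32.9, 29.1 and 36.9 CPM in the WT libraries. The Hnrnpl-null libraries were at 22.6, 17.0 and 18.1 CPM, below every WT library. The WT mean was 33 ± 3.87 CPM and the Hnrnpl-null mean 19.3 ± 2.98 CPM (SD, n = 3 each), and Cenpf fell by 0.76 ± 0.16 on the log2 scale (edgeR adjusted p = 0.016). Its call was lost without WT replicate 3 (log2 fold change -0.67, edgeR adjusted p = 0.083) and without Hnrnpl-null replicate 2 (-0.66, edgeR adjusted p = 0.097). Without both libraries richest in Rn45s it was -0.73 (edgeR adjusted p = 0.024).

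Cenpe, the motor that carries chromosomes to the spindle equator, was at 16.6, 12.1 and 16.2 CPM in WT and 10.4, 10.2 and 3.74 CPM in Hnrnpl-null. Its groups did not overlap, but Hnrnpl-null replicate 3 rested on 12 counts, and the log2 fold change of -0.75 ± 0.28 (edgeR adjusted p = 0.15) was -0.52 without it. Cenpa, the histone variant that marks centromeres, was at 6.31, 8.07 and 7.36 CPM in WT and 9.09, 11.3 and 11.2 CPM in Hnrnpl-null. It thus stood on the other side of WT from Cenpf and Cenpe in each library (log2 fold change 0.51 ± 0.22, edgeR adjusted p = 0.24). Ndc80, Nuf2 and Spc25 encode subunits of the complex that grips microtubules, and their groups overlapped. The ratios of Hnrnpl-null to WT were 1.03 (95% interval 0.594 to 1.78), 1.22 (0.772 to 1.92) and 0.893 (0.555 to 1.44), with 6, 20 and 8 counts in Hnrnpl-null replicate 3. The summed level of the 6 genes was 62.1 to 78.4 CPM in WT and 43.7 to 57.8 CPM in Hnrnpl-null, of which Cenpf made the largest part.

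The chromosomal passenger complex corrects wrong attachments and guides cytokinesis. Its kinase Aurkb was at 6.58, 7.45 and 10.7 CPM in the WT libraries and 12.5, 9.89 and 15 CPM in the Hnrnpl-null ones. Hnrnpl-null replicate 2 lay below WT replicate 3, so the groups overlapped, and the log2 fold change was 0.54 ± 0.25 (edgeR adjusted p = 0.26). Its scaffold Incenp and its targeting subunit Birc5, the gene of survivin, had ratios of 1.01 (95% interval 0.790 to 1.30) and 0.782 (0.545 to 1.12). Aurkb and Birc5, whose products act in 1 complex, thus had means on opposite sides of WT. Of the 3 genes, edgeR, DESeq2 and limma-voom called 0, and 1 had an unadjusted edgeR p below 0.05.

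Genes of mitotic chromosomes held the rise that was called. Top2a (chromosome 11, 98992947 to 99024189, mm10, minus strand) was at 59.3, 65.5 and 70.3 CPM in the WT libraries and 93.0, 100.3 and 83.6 CPM in the Hnrnpl-null ones. Every Hnrnpl-null library was above every WT library, with means of 65.0 ± 5.48 and 92.3 ± 8.33 CPM (SD, n = 3 each). The log2 fold change was 0.51 ± 0.12 (edgeR adjusted p = 0.026), a ratio of 1.42. Leaving out replicate 1 or 2 of either group ended the call (log2 fold change 0.44 to 0.51, edgeR adjusted p of 0.078 to 0.13). Mki67 was at 92.3, 74.2 and 74.1 CPM in WT and 83.2, 78.1 and 97.4 CPM in Hnrnpl-null. The groups overlapped, and the ratio was 1.07 with a 95% interval of 0.885 to 1.30.

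Condensin, the ring complex that compacts chromosomes, was measured through 4 of its genes. Ncapg, a subunit of condensin I, was at 20.5, 20.5 and 28.8 CPM in the WT libraries and 16.1, 14.1 and 15 CPM in the Hnrnpl-null ones. The groups did not overlap, and the log2 fold change of -0.63 ± 0.18 was not called (edgeR adjusted p = 0.063), but DESeq2 called it lower (adjusted p = 0.031), as did limma-voom (adjusted p = 0.033). Without WT replicate 3 it was -0.44 (edgeR adjusted p = 0.26). Ncapg shares exonic sequence with Lcorl on the other strand. Ncaph, the kleisin of the same complex, and the core subunits Smc2 and Smc4 had groups that overlapped, with ratios of 0.940 (95% interval 0.650 to 1.36), 0.830 (0.661 to 1.04) and 0.823 (0.663 to 1.02). The means of the 4 condensin genes were below WT, while that of Top2a was above it.

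Spindle motors and microtubule proteins showed no gene past the threshold. Of the 8 genes, edgeR, DESeq2 and limma-voom called 0, and 0 had an unadjusted edgeR p below 0.05. Kif23, a motor of the central spindle, was the 1 gene whose groups did not overlap, at 9.47, 9.03 and 11 CPM in the WT libraries and 11.1, 11.3 and 15 CPM in the Hnrnpl-null ones. The gap between its groups was small beside their spread, and the ratio was 1.23 (95% interval 0.904 to 1.68). Ratios of the others ran from 0.789 for Kif2c, a depolymerase of microtubules, to 1.36 for Nusap1, which bundles spindle microtubules. Kif11, the motor that separates spindle poles, was at 1.13 (95% interval 0.887 to 1.44), Tpx2, an activator of Aurora A, at 1.11 (0.845 to 1.46) and Prc1, which crosslinks the central spindle, at 0.914 (0.708 to 1.18). Kif4, a chromosome-bound motor, and Kif20a, a motor of cytokinesis, were at 0.838 and 1.14. Nusap1 shares exonic sequence with Oip5, and Kif20a with Brd8 and Cdc23, on the other strand.

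The cytokinesis genes were level between the groups in their means. Anln, which encodes the ring scaffold anillin, was at 23.9, 20.7 and 22.2 CPM in the WT libraries and 21.3, 22.1 and 22.5 CPM in the Hnrnpl-null ones. All 6 values lay within a narrow band, and the ratio was 0.987 (95% interval 0.798 to 1.22). Ect2, the exchange factor that starts the cleavage furrow, had a ratio of 0.922 (95% interval 0.708 to 1.20). Of these 2 genes, edgeR, DESeq2 and limma-voom called 0, and 0 had an unadjusted edgeR p below 0.05.

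**Figure D3:**
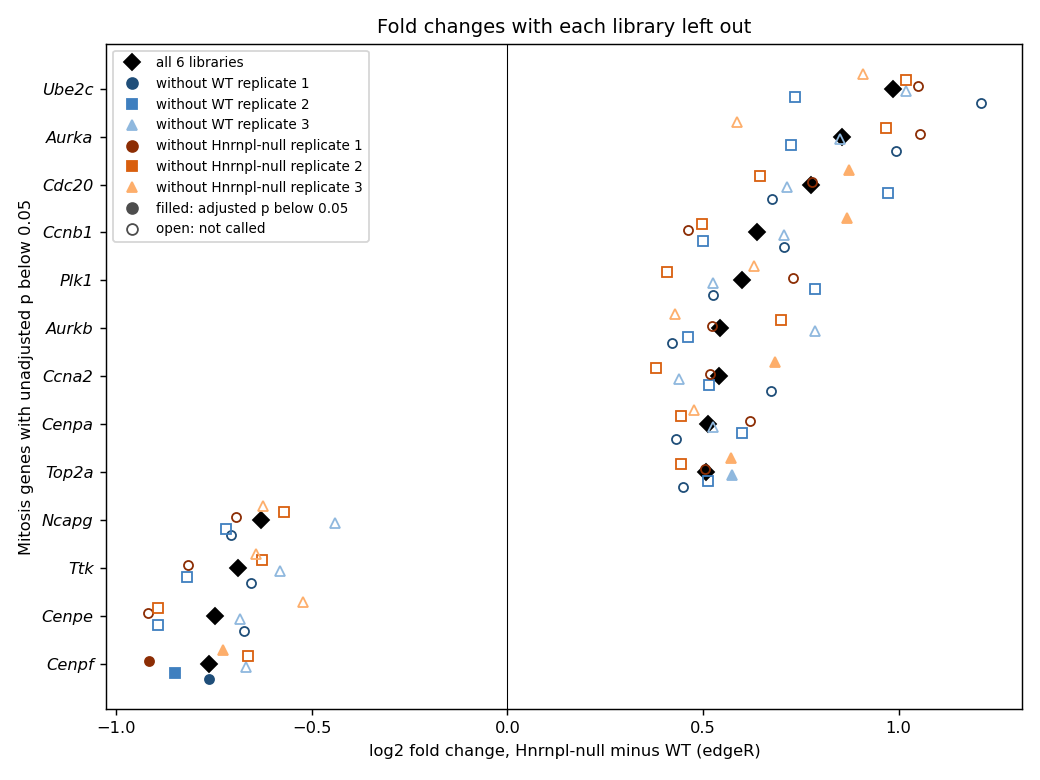
Log2 fold change (Hnrnpl-null minus WT, edgeR) of the 13 mitosis genes with an unadjusted p below 0.05, with all libraries (black diamonds) and with each library left out (coloured by library, filled where the adjusted p is below 0.05). All 13 genes stay on their side of 0, while the calls change with the library left out.

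Short mitosis genes tended to have higher and long ones lower means in Hnrnpl-null. Of the 7 genes with under 2 kb of exon, 6 had a log2 fold change above 0, and the median was 0.54. Aurka, Ccnb2, Spc25 and Ube2c among them also held the CCAAT pair, so both descriptions share these genes. Of the 17 genes of 2 to 4 kb, 10 were above 0 with a median of 0.04, and of the 13 longer genes 5 were above 0 with a median of -0.12. Over all genes tested the medians of the same length classes were 0.02, -0.01 and -0.03. Across the 37 genes the log2 fold change and the log2 of length had a Pearson r of -0.58 and a Spearman coefficient of -0.50, against -0.05 and -0.04 across the 14849 genes tested. These are descriptions across genes that share the same libraries. Without the shortest and the longest gene, Ube2c (931 bases) and Cenpf (11122 bases), r was -0.43 over 35 genes. With the trend of counts with length removed from each library, r was -0.54 over the 37 genes. That trend was fitted over all genes tested, where fold change hardly varied with length, so this value is no check on the mitosis genes. Top2a (5217 bases) and Spc25 (1846 bases) lay on the other side of 0 from most genes of their length class.

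**Figure D4:**
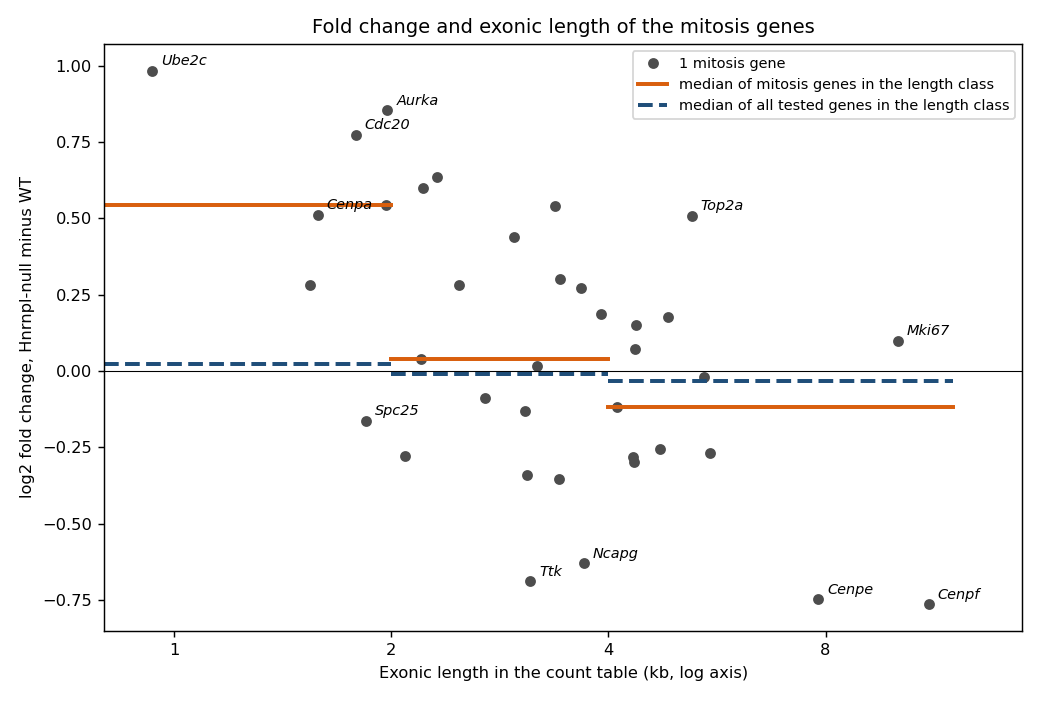
Log2 fold change (Hnrnpl-null minus WT, edgeR) of each mitosis gene against its exonic length in kb on a log axis. Lines are medians in 3 length classes, which go from 0.54 to -0.12 for the mitosis genes (orange) and stay between -0.03 and 0.02 for all genes tested (blue, dashed).

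Further genes of mitosis and the cell cycle were described through 6 lists with 136 genes tested, of which 4 were called higher and 4 lower by edgeR (5.88%). In the list of other spindle, kinetochore and chromosome genes, 2 of 60 were called higher and 1 lower, with a median log2 fold change of 0.03. Ncapd2, another subunit of condensin I, was at 56.3, 54.5 and 43.1 CPM in the WT libraries and 71.7, 80.2 and 77.4 CPM in the Hnrnpl-null ones. It rose, with groups that did not overlap (log2 fold change 0.58 ± 0.13, edgeR adjusted p = 0.021), so that condensin I subunits had means on both sides of WT. Leaving out replicate 2 of either group or WT replicate 3 ended the call (edgeR adjusted p of 0.072 to 0.11). Espl1, the gene of separase, which opens cohesin rings at anaphase, was at 48.9, 56.3 and 61.5 CPM in WT and 38.5, 39.6 and 30.6 CPM in Hnrnpl-null. It fell (log2 fold change -0.60 ± 0.14, edgeR adjusted p = 0.024), a call ended by leaving out WT replicate 2 or 3 or either of the first pair of Hnrnpl-null libraries (edgeR adjusted p of 0.060 to 0.10). Arhgap11a, a GTPase-activating protein, rose from 12 ± 1.19 to 20.8 ± 4.13 CPM (SD, n = 3 each; edgeR adjusted p = 0.035), a call that held when Hnrnpl-null replicate 1 was left out and ended with each of the others (edgeR adjusted p of 0.054 to 0.15).

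Regulators of mitosis held few calls. Of 18 other genes of the anaphase-promoting complex (subunits, inhibitors, a further coactivator and a further conjugating enzyme among them), 0 were called by edgeR. DESeq2 and limma-voom each called 1 higher, and 3 had an unadjusted edgeR p below 0.05. Of 16 kinases and phosphatases of mitotic entry, 0 were called by edgeR and 1 higher by each of the other tools, with 2 at an unadjusted edgeR p below 0.05. Of 22 genes of the transcription of mitotic genes (MuvB, E2F, Rb and NF-Y families among them), edgeR and DESeq2 each called 1 higher, and limma-voom 2 higher and 1 lower. The gene called by edgeR was E2f8, an atypical E2F repressor, at 4.47, 1.90 and 2.06 CPM in the WT libraries and 6.90, 6.62 and 8.74 CPM in the Hnrnpl-null ones. It rose (log2 fold change 1.45 ± 0.37, edgeR adjusted p = 0.041), though the call depended on WT replicates 2 and 3 and on Hnrnpl-null replicates 1 and 2, each of which ended it when left out (edgeR adjusted p of 0.10 to 0.19), and its exons overlap those of the gene model Gm2788. Of 13 tested G1 cyclins, their kinases and inhibitors, edgeR called 1 higher (Cdk6), while DESeq2 and limma-voom called the same 3 higher (Ccnd2, Cdk4 and Cdk6), and 5 with higher and 1 with lower means had an unadjusted edgeR p below 0.05. Their summed level was 823 to 895 CPM in the WT libraries and 1013 to 1083 CPM in the Hnrnpl-null ones, which did not overlap. Cdk6 rose from 77.6 ± 5.07 to 123 ± 12.6 CPM (log2 fold change 0.67 ± 0.11, edgeR adjusted p = 0.0044), and it was called with any 1 library left out. Cdk6 encodes a G1 kinase that also acts in blood progenitors.

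Germ cell counterparts of mitotic proteins were lower where they were called. Of 7 tested genes, 3 were called lower by edgeR (42.9%), beside 1.79% of all genes tested called lower. The call of Kif17 among them rested on WT replicate 1. Over the 7 genes, 5 log2 fold changes were below 0 and 2 above it. DESeq2 called 3 lower and limma-voom 2, in neither case Kif17. Smc1b, a cohesin subunit of meiosis, was at 54.7, 42.2 and 46.0 CPM in the WT libraries and 16.5, 13.7 and 21.8 CPM in the Hnrnpl-null ones. Rec8, the meiotic kleisin of cohesin, was at 10.4, 9.19 and 10.05 CPM in WT and 1.35, 2.81 and 1.87 CPM in Hnrnpl-null. Both stood far apart between the groups (log2 fold changes of -1.51 ± 0.17 and -2.26 ± 0.32, edgeR adjusted p = 1.8e-04 and 0.0011). Kif17, a kinesin, was at 4427 CPM in WT replicate 1 against 2.98 and 3.17 CPM in the other WT libraries, and it was at -0.74 on the log2 scale without it (edgeR adjusted p = 0.65).

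Marker lists give the levels of genes of the cell types that the ovary libraries could hold, not numbers of cells. The summed level of 11 germ cell genes was 301 to 335 CPM in WT and 120 to 142 CPM in Hnrnpl-null, with 10 of 11 called lower. The 8 genes of myeloid progenitors, cells that divide, summed to 3.58 to 4.47 CPM in WT and 548 to 724 CPM in Hnrnpl-null, with 7 called higher and Ms4a3 without counts in WT. Mast cell genes were at 155 to 162 and 791 to 921 CPM (5 of 5 tested called higher, with Fcer1a and Ms4a2 left out by the filter on low counts), and pan-leukocyte genes at 26.2 to 35.0 and 134 to 144 CPM (6 of 7 called higher). Stromal genes were at 6012 to 6513 and 8949 to 10340 CPM (4 of 8 called higher). Most of that sum came from the collagen genes Col1a1, Col1a2 and Col3a1, which were called. Lum, Pdgfra, Nr2f2 and Tcf21 were not called, with ratios of Hnrnpl-null to WT of 1.30, 1.11, 0.973 and 0.892. Surface epithelium genes were at 319 to 381 and 409 to 542 CPM (3 of 5 called higher). Pregranulosa genes were at 856 to 926 and 900 to 997 CPM, with 1 of 10 called higher. That gene was Kitl, which rose from 78.3 ± 7.04 to 174 ± 4.01 CPM (SD, n = 3 each; edgeR adjusted p = 3.7e-05). The mean of the summed level of the list went from 888 to 958 CPM. Log2 fold changes were above 0 for 5 of the 10 genes and below it for 5, with a median of 0.008. In the endothelial, smooth muscle, macrophage and erythroid lists edgeR called 0 of 7, 6, 7 and 5 tested genes, with 3, 3, 2 and 2 at an unadjusted p below 0.05, while DESeq2 called 2, 1, 0 and 1. Their sums were 149 to 184, 126 to 155, 63.3 to 69.9 and 74.5 to 86.8 CPM in WT, and 153 to 165, 139 to 145, 68.3 to 90.6 and 63.0 to 122 CPM in Hnrnpl-null. In the endothelial list 1 log2 fold change was above 0 and 6 were below it, with a median of -0.41. The 1 above 0 was that of Kdr, the gene of the highest level there, at means of 80.6 ± 3.33 and 103 ± 1.99 CPM. Cdh5 fell from 30.8 ± 7.74 to 19.6 ± 2.10 CPM (SD, n = 3 each). DESeq2 called Kdr and the erythroid gene Slc4a1 higher, and Cdh5 and the smooth muscle gene Myh11 lower. The part of the listed cell types in the levels of the mitosis genes was not tested.

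**Figure D5:**
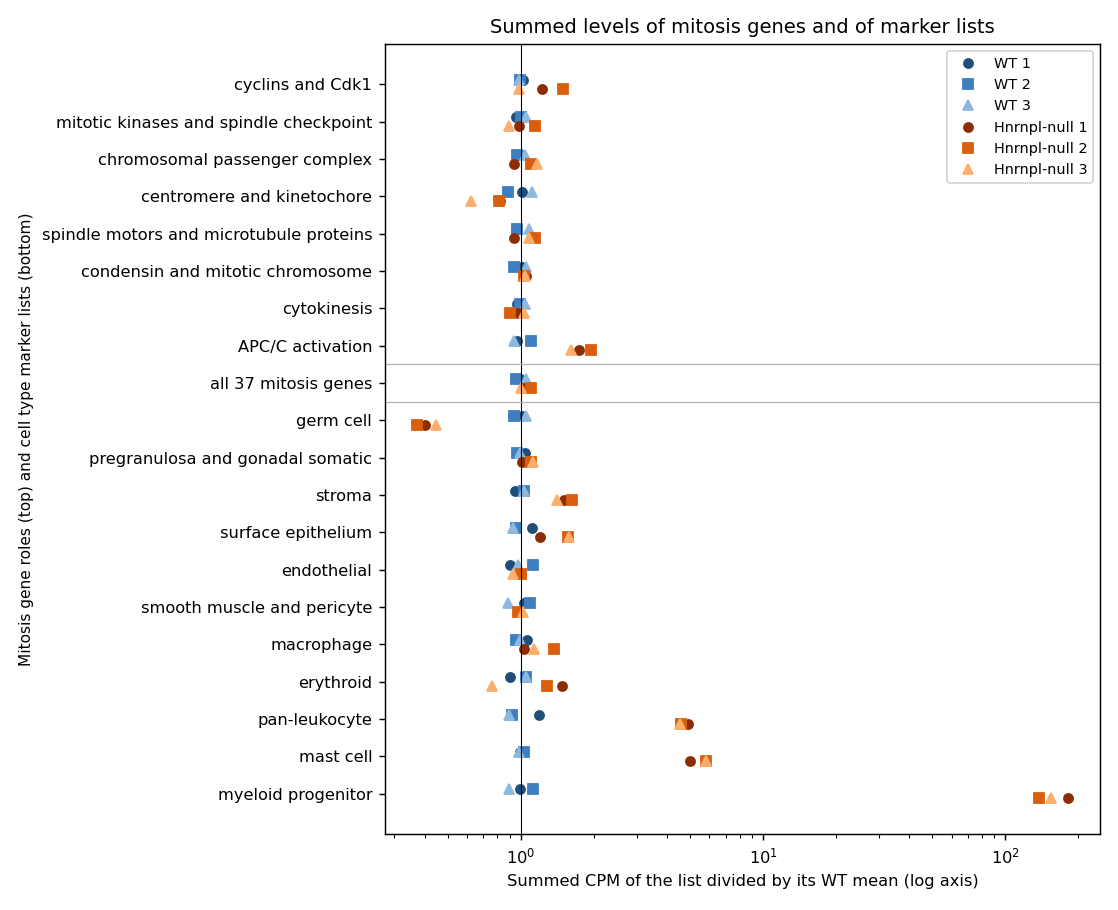
Summed CPM of each role of mitosis genes (top), of all 37 (middle) and of cell type marker lists (bottom) in each library, divided by the mean of the 3 WT libraries, on a log axis. The sum of the 37 genes is near 1 in every library, while germ cell genes lie below 1 and leukocyte, mast cell and myeloid progenitor genes far above 1 in all 3 Hnrnpl-null libraries.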

How the data were processed

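Per the file headers, the authors deposited raw gene counts in the layout of featureCounts, with each gene's exonic length, for the 6 libraries. The submitters' processing notes list mm10, HISAT2 2.2.1, STAR 2.7.11a and featureCounts 2.0.6 without saying which step each served. The annotation, the strand setting and how multi-mapping reads were handled are not stated in the sources used here. Genotype was tested by edgeR 4.0.16 under R 4.3.3 (TMM, filterByExpr, glmQLFit and glmQLFTest, two-sided, genotype as the only term), Benjamini-Hochberg adjusted over all 14849 genes tested and called below 0.05. Standard errors come from the F statistic, and 95% intervals from them. The test was tried on simulated counts of these 14849 genes, with 200 genes of any level picked at random and changed. Of the genes changed 4-fold, 2-fold and 1.5-fold it called 89.1%, 54.0% and 10.8%, and 10 of its 108 calls were false. Changes of 1.5-fold were thus often missed in that setting. The rate for the mitosis genes, at their own levels and beside the 663 genes called in the data, was not simulated.

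No pair of libraries within a group was alike within counting noise (on halved counts, chi-square over its degrees of freedom was at least 5.29). The members and lists were chosen with earlier results of these data known. By rule, each mitosis gene could be named, with values per library for those with an unadjusted p below 0.05, and from each other list the called genes. Kif23, Anln, Mki67, Ccnd2, Cdk4 and the values of markers were added after they were seen. Alternatives were DESeq2 1.42.0, limma-voom (limma 3.58.1), other scalings and filters, robust dispersions, halved counts, removal of the trend with length (lowess, span 0.3), the replicate number as a block, a threshold of 0.01, and leaving out the Rn45s row, each library, or both libraries richest in Rn45s. Promoters are RefSeq windows of GRCm38.p6, matched by symbol.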

Additional observations from a re-analysis of the deposited data

How the results depend on the processing

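The log2 fold changes of 28 of the 37 mitosis genes kept their sign in all 20 alternatives, and 29 genes were called in none of the fits. Counts of calls depended on the setting. Over all genes, 663 calls became 1091 with DESeq2, 1273 with limma-voom, 1104 with no filter, 236 at the 0.01 threshold and 4 with total counts as the only scaling, which lets Rn45s set the library sizes. Mitosis genes called higher and lower, 1 and 1 in the main test, were 2 and 2 with DESeq2, robust dispersions or halved counts, 5 and 2 with limma-voom, 2 and 3 with no filter, 4 and 2 without both libraries richest in Rn45s, and 0 and 0 with total counts only or at the 0.01 threshold. They were 2 higher with RLE factors, without the Rn45s row or with the length trend removed. Other listed genes of mitosis and the cell cycle, 8 called in the main test, were 13 with DESeq2, 16 with limma-voom, 1 with total counts only and 3 at the 0.01 threshold. Leaving out 1 library gave 249 to 853 calls over all genes, 0 to 4 mitosis genes higher, 0 to 1 lower, 3 to 7 other listed genes, and a median log2 fold change over the mitosis genes of -0.025 to 0.18. With the replicate number as a block (replicate block) 0 mitosis genes were higher, Top2a being lost (edgeR adjusted p = 0.058), and 4 other listed genes were called. Deviations from the group means correlated at -0.12, 0.09 and -0.09 between libraries of the same number. Between libraries of different numbers they correlated at -0.11 to 0.15, with the highest value between both libraries richest in Rn45s. These values cannot show whether the numbers pair the libraries, since differences in library quality also enter them. Where a call was gained or lost, the cause was not tested, other than that fits without a library have fewer samples. Depth limits the genes of the lowest counts, above all in Hnrnpl-null replicate 3.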
